A study of Mus musculus with 8 samples.

Results

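The genes described here are 44 members of the DNA replication and S-phase machinery, chosen by name from lists of origin licensing, helicase, polymerase, nucleotide supply and replication repair genes. All 44 are present, each with 1 row, among the 28792 gene symbols of both expression tables. Values are FPKM (fragment numbers divided by transcript length and by the mapped total), so levels of different genes can be set beside each other.

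The study sorted hair follicle stem cells, which sit in the bulge and regrow the hair in each cycle, from mouse back skin by flow cytometry. In the first pair, C57BL6/129Sv females at postnatal day 99 carried K15CrePGR, a Cre fused to a progesterone receptor under a keratin 15 promoter, with a Rosa-YFP reporter (Rosa-YFPfl/stop/fl). Ctnnb1, the gene of β-catenin, was Ctnnb1+/fl in the mice labelled Het and Ctnnb1fl/fl in those labelled cKO. The labels name no agent that induces this Cre. In the second pair, C57BL6 males at postnatal day 24 carried Axin2LacZ/+, in which 1 allele of the Wnt target Axin2 is a LacZ reporter, and bulge cells were sorted by reporter activity into LacZ(+) and LacZ(-). Both LacZ populations carry the same allele, and their stage is the passage from rest (telogen) to growth (anagen). For the first pair the labels name telogen in 1 place and the onset of anagen in another. Each of the 4 groups is 1 library, and the sources used here do not say how many mice it holds. There is therefore no replicate check and no test, and every difference below describes these libraries.

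A cell that leaves rest must license its replication origins before it can copy its DNA. Cdc6 and Cdt1 load the ring of Mcm2 to Mcm7 onto origins in G1, and geminin, the product of Gmnn, blocks Cdt1 once S phase has begun. Cyclin E with its kinase, together with Cdc45, the GINS complex and Mcm10, turns the loaded rings into moving helicases, behind which primase, the polymerases, the clamp PCNA and its loader RFC work. Many of these genes are targets of the E2F factors, which the retinoblastoma proteins hold in check in resting cells. Most bulge stem cells rest for much of the hair cycle and divide for a short time at its start.

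The targeted gene did not check the labels, because a gene-level value does not resolve the floxed part. Ctnnb1 was at 370 FPKM in the library labelled cKO and 251 in that labelled Het. Axin2 was at 2.12 and 16.3 FPKM in that pair, and at 19.0 in LacZ(+) and 9.10 in LacZ(-) cells. The depth of the libraries is unknown, since FPKM keep no counts. Of 10 bulge and basal markers, all were above 1 FPKM in 3 libraries, and Krt15 is listed at 0 in LacZ(-) cells, where an exact 0 can be a failed estimate.

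Promoter sequence was examined first, because many replication genes are textbook E2F targets. RefSeq start sites of build GRCm38.p6 were matched to 35 of the 44 members by symbol; Mcm4, Gmnn, Gins1, Gins2, Gins4, Rfc2, Pole, Prim2 and Ccne2 had no entry. The 250 bases before each start were searched on both strands for the E2F words TTTCCCGC, TTTCGCGC, TTTGCCGC and TTTGGCGC. At least 1 such word lay before a start of 7 of the 35 members, against 2.16% of all 27025 genes with a start in the table and 4.04% of the 8338 of them that were measured in both pairs. The 7 were Mcm5, Mcm6, Mcm7, Cdc6, Gins3, Pola1 and Rfc3. Of the other replication genes listed in processing, 13 of 50 (26.0%) held a word, and of 20 mitosis genes 1 did.

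The promoters of 3 members are printed in full, 5′ to 3′ on the gene's strand, with the E2F words in capitals. Mcm5 (chr8:75109259-75109508, plus strand) is shown as the only member past the 2-fold line in LacZ(+) cells that holds a word. Its pair of words overlap and begin 153 and 149 bases before the start. Chek1 (chr9:36726659-36726908, minus strand) had the highest difference of all members and holds none. Rfc5 (chr5:117389024-117389273, minus strand) was nearly level in the LacZ pair and holds none.
Mcm5: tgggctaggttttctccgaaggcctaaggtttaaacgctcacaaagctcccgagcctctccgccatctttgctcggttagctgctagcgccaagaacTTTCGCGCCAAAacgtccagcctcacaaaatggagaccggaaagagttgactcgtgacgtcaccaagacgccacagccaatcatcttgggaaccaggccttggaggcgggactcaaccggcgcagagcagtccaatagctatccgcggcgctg
Chek1: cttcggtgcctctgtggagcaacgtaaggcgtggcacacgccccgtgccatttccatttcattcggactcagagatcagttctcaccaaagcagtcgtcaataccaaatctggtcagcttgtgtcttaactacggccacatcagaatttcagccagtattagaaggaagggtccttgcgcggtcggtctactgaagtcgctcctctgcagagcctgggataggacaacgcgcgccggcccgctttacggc
Rfc5: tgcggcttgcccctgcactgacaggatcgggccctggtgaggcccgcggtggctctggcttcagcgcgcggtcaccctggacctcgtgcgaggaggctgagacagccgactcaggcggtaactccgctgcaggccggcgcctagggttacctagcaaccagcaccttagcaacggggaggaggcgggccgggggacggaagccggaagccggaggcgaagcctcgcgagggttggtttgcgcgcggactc

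The other 6 members with an E2F word are shown as short windows around it, again with the words in capitals. They lie at chr1:128359735-128359825 for Mcm6 (minus strand, 3 words, of which 2 overlap), chr5:138172015-138172074 for Mcm7 (minus), chr11:98907987-98908046 for Cdc6 (plus), chr8:95633492-95633551 for Gins3 (plus), chrX:93632260-93632319 for Pola1 (minus) and chr5:151651209-151651268 for Rfc3 (minus), all of build GRCm38.p6. Mcm6 stands out by its number of words, and that of Rfc3 lies nearest to the start, beginning 10 bases before it.
Mcm6: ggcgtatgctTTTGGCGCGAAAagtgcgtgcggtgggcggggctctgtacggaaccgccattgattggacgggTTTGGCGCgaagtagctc
Mcm7: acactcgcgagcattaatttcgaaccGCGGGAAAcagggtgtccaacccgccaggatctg
Cdc6: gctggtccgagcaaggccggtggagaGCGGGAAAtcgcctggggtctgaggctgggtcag
Gins3: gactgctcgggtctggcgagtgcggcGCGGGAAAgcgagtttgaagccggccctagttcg
Pola1: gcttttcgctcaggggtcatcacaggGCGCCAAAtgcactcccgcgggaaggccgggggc
Rfc3: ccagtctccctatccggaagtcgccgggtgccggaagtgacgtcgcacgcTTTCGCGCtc

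Other short words were distributed differently over the gene groups. The CCAAT box, bound by NF-Y, lay before a start of 20 of 35 members (57.1%), against 85.0% of the 20 mitosis genes, 37.5% of all genes and 40.7% of the measured ones. The cell cycle homology word TTTGAA, known from mitotic promoters, lay before 5 members (14.3%), 7 of 20 mitosis genes, 18.3% of all genes and 12.4% of the genes measured in both pairs. The TCF words CTTTGAA and CTTTGAT, of which the first contains TTTGAA, lay before 1 member, Fen1 (2.86%), 8.63% of all genes and 6.31% of the measured ones. Holding an E2F word did not go with a larger difference between the LacZ populations. The median log2 difference was 0.41 for the 7 members with a word and 0.63 for the 28 without, and the word was found in 1 of 10 members past the 2-fold line and in 6 of 25 within it. A word in a window is a description of the letters, not a bound site.

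**Figure D1:**
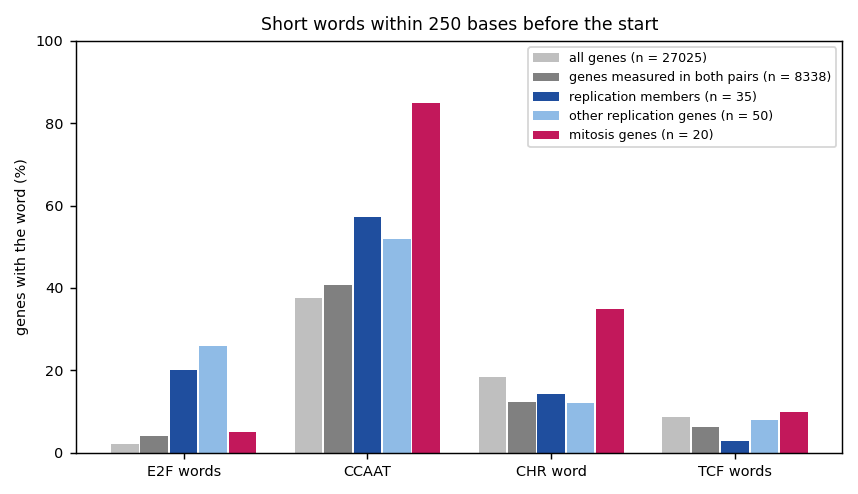
Share of genes (%, y axis) with each short word (x axis) on either strand within 250 bases before a RefSeq start; bars stand for all genes, genes measured in both pairs, the members, other replication genes and mitosis genes. E2F words are found in 7 of 35 members and 1 of 20 mitosis genes, and CCAAT in 57.1% and 85.0%.

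The members were detected in every library, with no value listed at 0. The median member level was 6.27 FPKM in the library labelled cKO, 9.54 in that labelled Het, 14.7 in LacZ(+) and 7.66 in LacZ(-) cells. LacZ(+) held the highest value of the 4 libraries for 37 of 44 members, and the library labelled cKO the lowest for 31. The same shares over all genes were not computed, so these counts have no background. The pairs differ in age, sex and strain, so the order of the libraries across them cannot be told apart from those differences. At least 10 FPKM was reached in all 4 libraries by 15 members. They include Pcna, at 71.8 to 113 FPKM the most abundant member, all 5 RFC subunits, Dut, Mcm6 and Mcm7. Brca1 was the lowest member in each library, from 0.127 FPKM in the library labelled cKO to 2.02 in LacZ(+) cells.

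**Figure D2:**
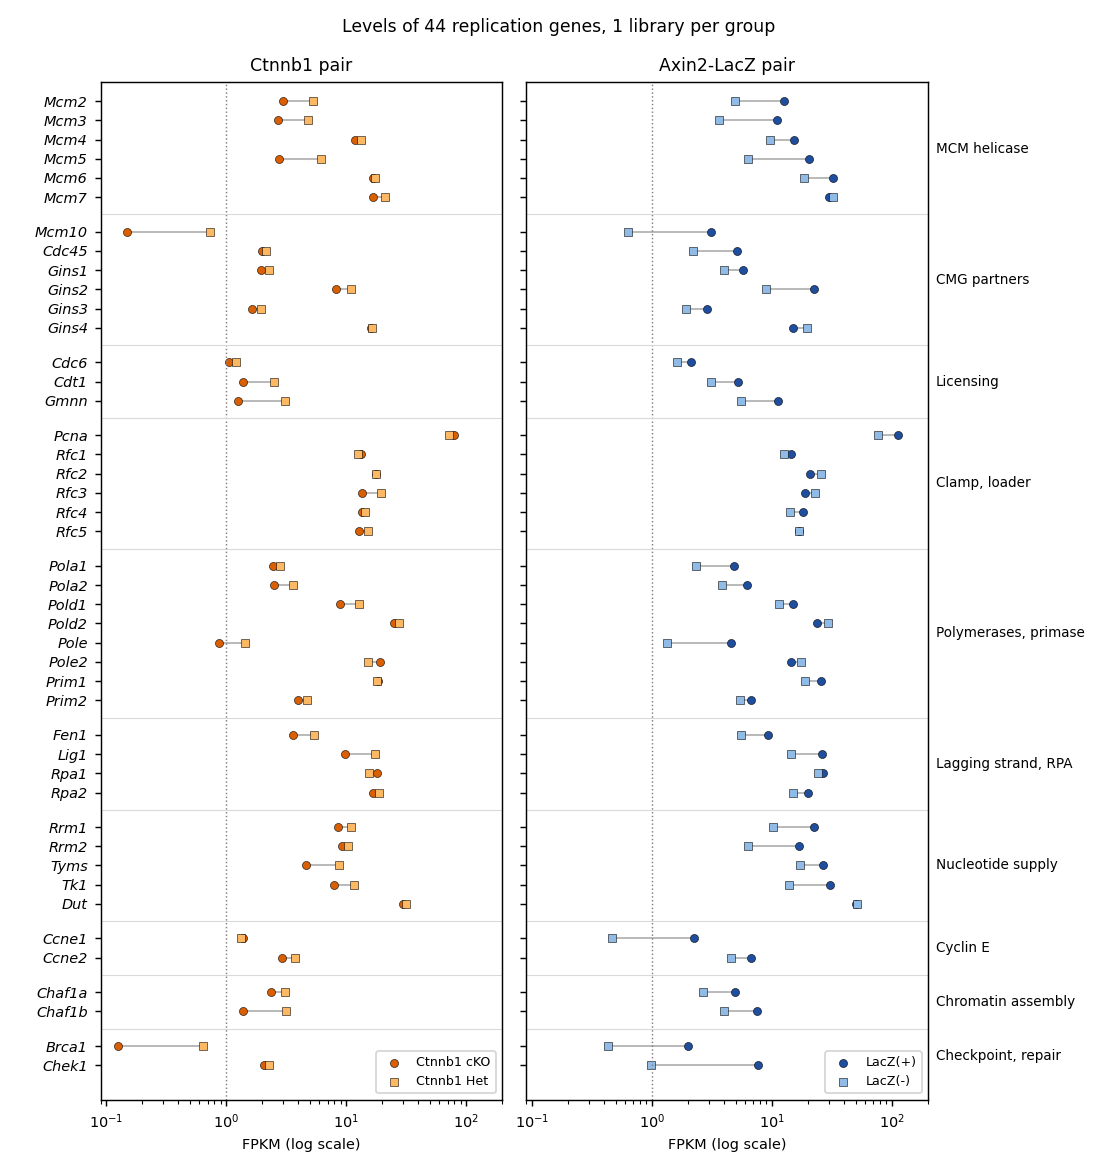
FPKM (x axis, log scale) of the 44 members (rows, grouped by role) in the libraries labelled cKO and Het (left) and in LacZ(+) and LacZ(-) cells (right); each point is 1 library, lines join a pair and the dotted line marks 1 FPKM. LacZ(+) is the higher of its pair for 37 of 44 members, and RFC subunits stay close together in all libraries.

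The first comparison asks how replication genes stand where Ctnnb1 is homozygous for the floxed allele. Most members were lower in the library labelled cKO, and none by 2-fold or more once 1 was added to each FPKM. By FPKM alone, 3 measured members were lower by more than 2-fold. They were Gmnn (ratio 0.404), Chaf1b (0.433) and Mcm5 (0.448). Differences are on the log2 scale, with 1 added to each FPKM, as cKO relative to Het, for genes reaching 1 FPKM in at least 1 of them, which left out Mcm10 and Brca1 here. The added 1 makes differences of low genes smaller than their FPKM ratios. Of 42 measured members 36 were lower, where 39.1% of all 13014 measured genes were lower. Pole, at 0.869 FPKM in the library labelled cKO and 1.43 in that labelled Het (-0.38), reached 1 FPKM only in the latter. The minimum thus fixed its direction. Of the 41 members that reached it in both libraries 35 were lower, with no share of all genes computed under that filter. Relative to 0.07, the median of genes with at least 5 FPKM in each library, 38 of 42 lay below, against 52.4% of all genes. The 0 members lower by 2-fold or more stand beside 2.29% of all genes, and the 0 higher beside 1.80%. With 0.1 in place of 1 added to each FPKM, 3 members were past the line on the lower side. The members' median was -0.19, against 0.06 for all genes. In a sorted bulk library, fewer cells in S phase and less of these RNAs per cell cannot be told apart.

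The helicase ring was lower as a whole, but not evenly, with all 6 subunits below the library labelled Het and a median of -0.48. Mcm5 (ENSMUSG00000005410, mm9 chr8:77633426-77652338) stood at 2.74 FPKM in the library labelled cKO and 6.12 in that labelled Het, a log2 difference of -0.93, the lowest of all members. Mcm2 stood at 2.95 and 5.27 FPKM (-0.67). Mcm3 stood at 2.73 and 4.85 FPKM (-0.65). The other 3 subunits were nearer to each other. Mcm7 stood at 16.8 and 21.3 FPKM (-0.32), Mcm4 at 11.8 and 13.4 (-0.18) and Mcm6 at 16.7 and 17.4 (-0.06). The less abundant subunits of the library labelled Het were thus those with the lower ratios.

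The licensing genes were all lower, by unequal amounts. Gmnn (ENSMUSG00000006715, mm9 chr13:24843713-24853792) stood at 1.26 FPKM in the library labelled cKO and 3.12 in that labelled Het (-0.87), a 2.47-fold lower FPKM. Cdt1 stood at 1.39 and 2.50 FPKM (-0.55). Its table interval, mm9 chr8:122434259-126869624, is shared by 152 rows, Gins2 among them, so reads of neighbours can enter both values. Cdc6 stood at 1.06 and 1.20 FPKM (-0.09), close to the minimum in both.

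Several genes that act late at the fork or behind it were on the lower side. Chaf1b, a subunit of the factor that places histones on new DNA, stood at 1.38 FPKM in the library labelled cKO and 3.18 in that labelled Het (-0.82), and its partner Chaf1a at 2.38 and 3.08 (-0.27). Lig1, the ligase that joins Okazaki fragments, stood at 9.71 and 17.4 FPKM (-0.78). Fen1, the flap nuclease that acts before it, stood at 3.63 and 5.44 FPKM (-0.48). Of the members at 5 FPKM or more in both libraries, 22 in number, only Lig1 lay outside the central 95% of all such genes, on the lower side, where by construction 2.50% of genes lie on each side. Lig1 shares its interval with 1 other row.

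Nucleotide supply genes were all lower, by unequal amounts. Tyms, the thymidylate synthase, stood at 4.67 FPKM in the library labelled cKO and 8.74 in that labelled Het (-0.78), and the thymidine kinase gene Tk1 at 7.88 and 11.6 (-0.50). Rrm1 and Rrm2, the subunits of ribonucleotide reductase, stood at 8.58 against 11.1 FPKM (-0.33) and 9.25 against 10.3 (-0.14). Dut, which removes dUTP, stood at 29.8 and 31.6 FPKM (-0.08).

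Of the 6 members on the higher side, 4 were clamp, loader or polymerase genes, and the others were Rpa1 and Ccne1. Pole2, a small subunit of polymerase epsilon, had the highest difference of this pair, with 19.2 FPKM in the library labelled cKO and 15.1 in that labelled Het (0.33). Rpa1, of the single-strand binding complex, stood at 18.2 and 15.6 FPKM (0.21), Pcna at 79.1 and 71.8 (0.14) and Rfc1 at 13.2 and 12.5 (0.08). Prim1 and Ccne1 were at 0.02 each, and both turn to the lower side relative to the median of all genes. The remaining loader and polymerase members ranged from -0.49 for Pold1 (8.90 and 12.9 FPKM) to -0.0016 for Rfc2. The GINS subunits, Cdc45, Chek1 and Ccne2 lay between -0.36 (Gins2) and -0.03 (Gins4), and Rpa2 was at -0.16.

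Mcm10 and Brca1 stayed under 1 FPKM in both libraries and had no difference computed. Mcm10, which activates the helicase, was listed at 0.148 FPKM in the library labelled cKO and 0.731 in that labelled Het. Brca1, a homologous recombination gene, was listed at 0.127 and 0.638. Each was below its Het value, at levels where the precision of an FPKM is unknown.

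The second comparison sets bulge cells with active Axin2 reporter against cells lacking that activity. Replication genes were higher in LacZ(+) cells, 12 of 44 by 2-fold or more, against 4.67% of all 13283 measured genes. They were Chek1, Mcm5, Mcm3, Mcm10, Rrm2, Pole, Gins2, Mcm2, Ccne1, Tk1, Brca1 and Rrm1. No member was lower by 2-fold or more, where 2.60% of all genes were. In all, 37 of 44 were higher, against 36.6% of all genes, and the members' median was 0.61, against -0.13 for all genes. The median of genes with at least 5 FPKM in each library was -0.17. Relative to it, 39 of 44 members lay above, against 54.2% of all genes, the members' median was 0.78, and 14 were higher by 2-fold or more, against 6.05%. Gmnn and Cdc45 are the 2 members that pass the line only then. With 5 in place of 1 added to each FPKM, 2 members were past the line, so the count depends on how low values are treated. Chek1, Mcm10, Ccne1 and Brca1 reached 1 FPKM only in LacZ(+) cells, so the minimum itself fixed their direction. Of the 40 members that reached it in both libraries, 33 were higher and 8 were past the line. The share of all genes under that filter was not computed, and the shares above include genes that reach the minimum in 1 library only.

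**Figure D3:**
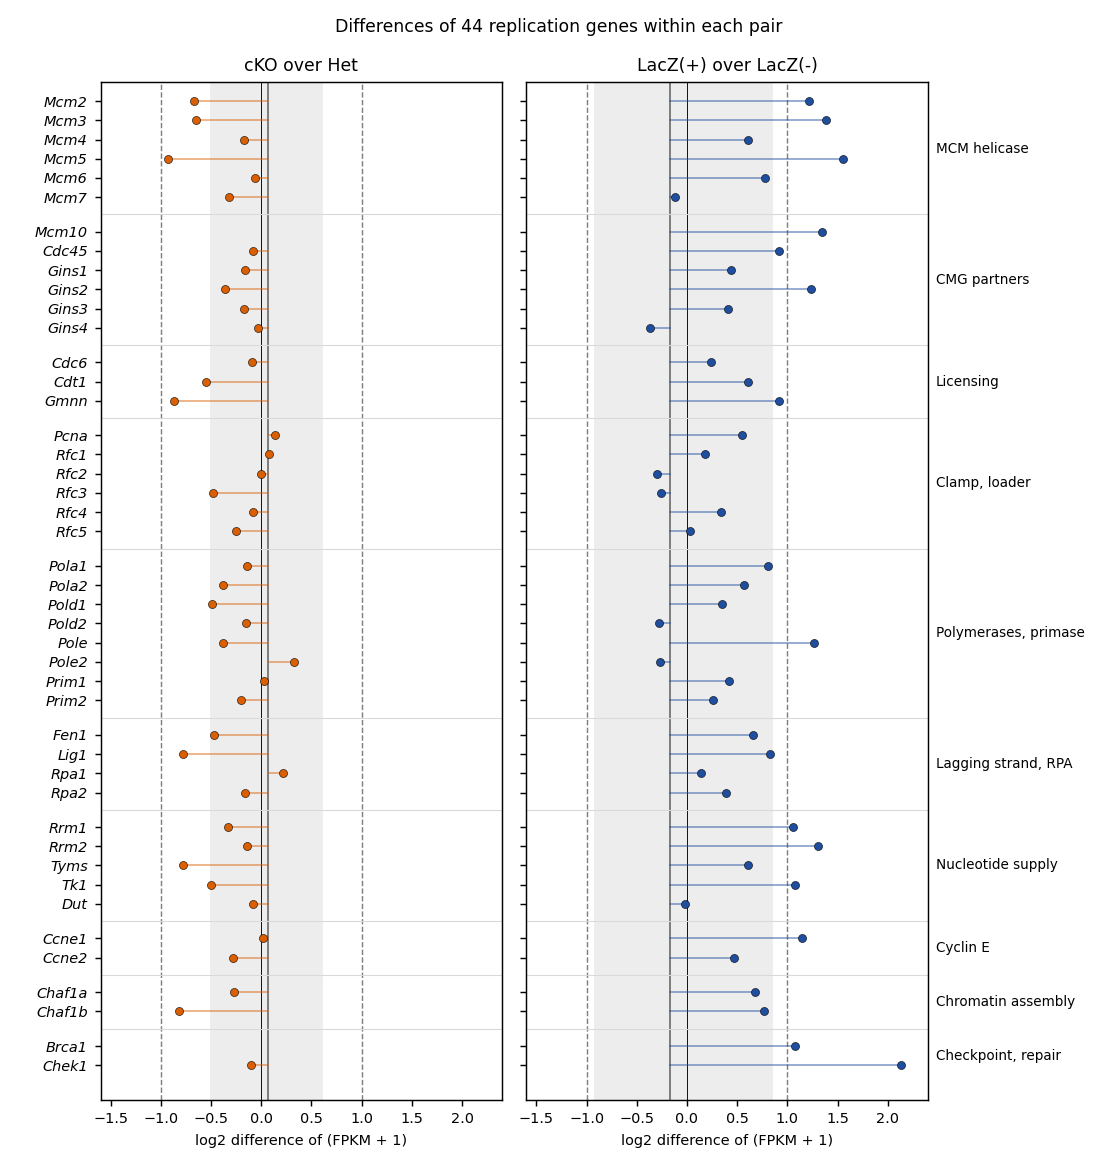
Log2 difference of (FPKM + 1) (x axis) for each member (rows, by role) in the Ctnnb1 pair (left) and the LacZ pair (right); coloured lines start at the median of genes with at least 5 FPKM in each library, the grey band is the central 95% of those genes and dashed lines mark 2-fold. Right of the 2-fold line lie 12 members in the LacZ pair and none in the Ctnnb1 pair, where Mcm10 and Brca1 were not measured.

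Chek1 (ENSMUSG00000032113, mm9 chr9:36516066-36534650), the checkpoint kinase that protects stalled forks, was furthest from equal. It stood at 7.73 FPKM in LacZ(+) and 0.989 in LacZ(-) cells, a log2 difference of 2.13 and an FPKM ratio of 7.82. In the first pair it was at 2.05 and 2.28 FPKM (-0.10). Brca1 stood at 2.02 FPKM in LacZ(+) and 0.434 in LacZ(-) cells (1.07).

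Of the helicase ring, 3 subunits were higher by 2-fold or more in LacZ(+) cells. Mcm5, whose promoter is printed above, stood at 20.6 FPKM in LacZ(+) and 6.36 in LacZ(-) cells (1.55). Mcm3 stood at 11.1 and 3.62 FPKM (1.39), and Mcm2 at 12.7 and 4.90 (1.22). These are also the 3 subunits with the lowest differences in the first pair. Mcm6 stood at 32.6 and 18.5 FPKM (0.78) and Mcm4 at 15.4 and 9.74 (0.61). Mcm7 stood at 29.8 and 32.6 FPKM (-0.12, or 0.05 relative to the median of all genes), and its interval is shared by 7 rows. The 6 subunits were closest to each other in LacZ(+) cells, where the highest level was 2.93 times the lowest. That ratio was 8.99 in LacZ(-) cells, 6.16 in the library labelled cKO and 4.38 in that labelled Het. Without Mcm7 the ratios were 2.93, 5.12, 6.10 and 3.59.

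The partners that turn the ring into a working helicase were mixed. Mcm10 (mm9 chr2:4910759-4933837) stood at 3.13 FPKM in LacZ(+) and 0.631 in LacZ(-) cells (1.34). Gins2 stood at 22.5 and 8.97 FPKM (1.24), in the interval of 152 rows named above. Cdc45 stood at 5.08 and 2.22 FPKM (0.92). The other GINS genes showed no common shift. Gins1 stood at 5.79 and 4.01 FPKM (0.44) and Gins3 at 2.91 and 1.94 (0.41), while Gins4, at 14.9 and 19.6 (-0.37), had the lowest difference of all members in this pair. GINS is a complex of 4 subunits, and their highest level was 7.72 to 10.1 times the lowest in the 4 libraries, whereas that ratio was 1.41 to 2.03 for the 5 subunits of RFC.

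With 1 added to each FPKM, the licensing genes were higher by less than 2-fold. Gmnn stood at 11.3 FPKM in LacZ(+) and 5.50 in LacZ(-) cells (0.92, or 1.09 relative to the median of all genes), an FPKM ratio of 2.05. Cdt1 stood at 5.25 and 3.10 FPKM (0.61), and Cdc6 at 2.11 and 1.63 (0.24). Of the E-type cyclins that drive entry into S phase, Ccne1 stood at 2.25 and 0.464 FPKM (1.15), and Ccne2 at 6.73 and 4.59 (0.47).

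Of the 5 nucleotide supply genes 4 were higher in LacZ(+) cells, and the median was 1.05. Rrm2, the subunit whose level limits ribonucleotide reductase in S phase, stood at 17.0 FPKM in LacZ(+) and 6.30 in LacZ(-) cells (1.30). Tk1 stood at 30.5 and 13.9 FPKM (1.08), and Rrm1 at 22.3 and 10.3 (1.05). Tyms, at 26.7 and 17.2 FPKM, was higher by less (0.60). Dut, at 50.5 and 51.3 FPKM, was level (-0.02, or 0.15 relative to the median of all genes).

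The polymerases divided by subunit. Pole, the catalytic subunit of polymerase epsilon, stood at 4.61 FPKM in LacZ(+) and 1.33 in LacZ(-) cells (1.27), in an interval of 3 rows, while its partner Pole2 stood at 14.3 and 17.5 (-0.27). Pold1, the catalytic subunit of polymerase delta, stood at 14.9 and 11.5 FPKM (0.35), and its partner Pold2 at 23.9 and 29.1 (-0.27). Pola1 and Pola2 of polymerase alpha stood at 4.84 against 2.35 FPKM (0.80) and 6.22 against 3.88 (0.57). The primase genes Prim1 and Prim2 were at 0.42 and 0.26. In each of the polymerase pairs epsilon, delta and alpha the catalytic subunit had the higher difference. It was also the less abundant RNA of each of these pairs in all 4 libraries.

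The clamp gene Pcna was higher in LacZ(+) cells, and the loader subunits were nearer to equal. Pcna stood at 113 FPKM in LacZ(+) and 76.6 in LacZ(-) cells (0.55). The 5 RFC subunits lay between -0.30 (Rfc2, 20.6 and 25.7 FPKM) and 0.34 (Rfc4, 18.3 and 14.3). Behind the fork, Lig1 stood at 26.2 and 14.3 FPKM (0.83), Fen1 at 9.33 and 5.56 (0.66), Rpa2 at 19.9 and 15.0 (0.39) and Rpa1 at 26.7 and 24.1 (0.14). The histone chaperone genes Chaf1b and Chaf1a were at 0.77 and 0.68.

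The members of low level include the 4 that reached 1 FPKM only in LacZ(+) cells, where they are high, and those hold 4 of the 9 calls given next. The 22 members with a mean under 11.4 FPKM over the 4 libraries were all higher in LacZ(+) cells, 9 of them past the 2-fold line, and had a median FPKM ratio of 2.06. Of the 22 more abundant members 15 were higher, 3 past that line, and the median ratio was 1.29. Among all genes under that level 46.4% were higher, and 6.91% by 2-fold or more. Among those above it 27.8% were higher, and 2.65% by 2-fold or more. In the Ctnnb1 pair the median FPKM ratio was 0.77 for the 20 measured members of low level and 0.89 for the 22 abundant ones. Among members at 5 FPKM or more in both LacZ libraries, 27 in number, 6 lay above the central 95% of such genes, where 2.51% of genes lie on each side, and none lay below it. They were Mcm5, Rrm1, Rrm2, Tk1, Gmnn and Gins2.

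**Figure D4:**
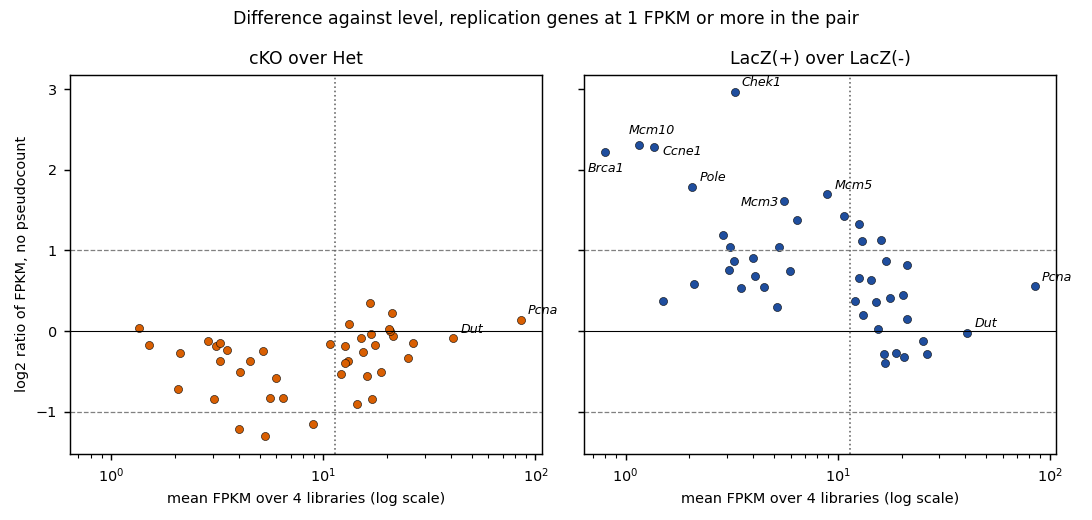
Log2 ratio of FPKM without a pseudocount (y axis) against the mean FPKM over the 4 libraries (x axis, log scale) for each measured member; dashed lines mark 2-fold and the dotted line the members' median level of 11.4 FPKM. The ratios furthest from 0 in the LacZ pair, those of Chek1, Mcm10, Ccne1 and Brca1, belong to members of low level.

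Set side by side, the pairs share no library. Of the 42 members measured in both, 30 were lower in the library labelled cKO and higher in LacZ(+) cells, against 16.3% of all genes measured in both. Relative to each pair's median the number was 34, against 30.8% of the 12499 genes measured in both. None was past the 2-fold line in both pairs, where 0.672% of genes were lower in the first and higher in the second. With 0.1 in place of 1 added to each FPKM, 2 members were past it in both. Across the 42 members Pearson's r between the 2 differences was -0.41, and -0.01 across all genes measured in both, a description over genes that share the same 4 libraries. By ranks (Spearman's rho) the values were -0.45 across the members and -0.15 across all genes measured in both. Chek1, Rrm2 and Ccne1 were past the line in LacZ(+) cells and within 0.15 of equal in the Ctnnb1 pair.

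Mitosis genes are given beside the members because they act after S phase. Of 24 mitosis genes, such as Cdk1, Top2a and Mki67, 21 were measured in the Ctnnb1 pair, all were lower, 15 of them past the 2-fold line, and the median was -1.19, against -0.19 for the members and 2.29% of all genes past the line. Of these 21, 16 reached 1 FPKM only in the library labelled Het, so the minimum fixed their direction. The 5 that reached it in both were all lower, 4 of them past the line. In the LacZ pair all 24 were past it on the higher side, where 4.67% of all genes were, and the median was 1.97, against 0.61. Of these, 6 reached 1 FPKM only in LacZ(+) cells, so the minimum fixed their direction. No test of this difference is possible with 1 library per group. Cdk1 stood at 1.19, 8.84, 28.8 and 4.15 FPKM in the libraries labelled cKO, Het, LacZ(+) and LacZ(-), and Mcm2 at 2.95, 5.27, 12.7 and 4.90. Most mitosis genes lay under 5 FPKM outside LacZ(+) cells, while several members kept over 10 FPKM in all libraries.

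**Figure D5:**
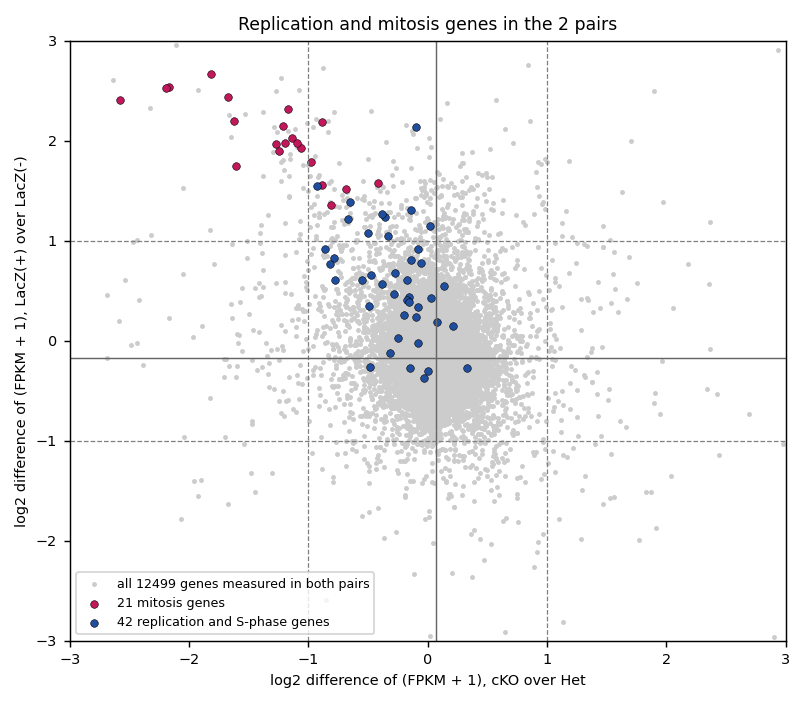
Log2 difference in the LacZ pair (y axis) against that in the Ctnnb1 pair (x axis) for the 12499 genes measured in both (grey), 42 members (blue) and 21 mitosis genes (red); solid lines mark each pair's median, dashed lines 2-fold, and 115 genes beyond 3 on either axis are not drawn. Mitosis genes reach the upper left, with 15 past the line in both pairs, and no member is past both at the pseudocount of 1 drawn here.

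Other genes of the pathway, a list of 63 of which 62 are in the tables, were also mostly lower in the first pair and higher in the second. In the Ctnnb1 pair 54 were measured and 40 were lower, against 39.1% of all genes. Past the 2-fold line, where 2.29% of all genes lay, were 5: Timeless, Uhrf1, Asf1b, Hells and Rad54l. Of the 54, 7 reached 1 FPKM only in the library labelled Het, so the minimum fixed their direction. Timeless, Asf1b and Rad54l are among these 7. Of the 46 that reached it in both libraries, 33 were lower, 2 of them past the line. Hells, a chromatin remodeller, stood at 2.03 FPKM in the library labelled cKO and 6.11 in that labelled Het (-1.23), and Uhrf1, which guides DNA methylation to new strands, at 2.20 and 6.12 (-1.15). Among pathway genes reaching 5 FPKM they were followed in size by Rnaseh2c (26.9 and 43.7 FPKM, -0.68), Pold3 (18.9 and 28.7, -0.58) and Rnaseh2b (38.6 and 27.6, 0.47). Orc1, the origin recognition subunit that varies over the cell cycle, was the only one higher by 2-fold or more, at 2.49 and 0.380 FPKM (1.34). It reached 1 FPKM only in the library labelled cKO, so the minimum fixed its direction too. The median was -0.08.

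In the LacZ pair 61 pathway genes were measured and 45 were higher, against 36.6% of all genes, and 12 by 2-fold or more, against 4.67%. Of the 61, 13 reached 1 FPKM only in LacZ(+) cells, so the minimum fixed their direction. Of the 48 that reached it in both libraries, 32 were higher and 7 past the line, with no share of all genes computed under that filter. Asf1b, a histone chaperone, stood at 8.06 FPKM in LacZ(+) and 1.11 in LacZ(-) cells, a ratio of 7.24, Hells at 15.9 and 3.58 (1.89) and Uhrf1 at 15.5 and 3.50 (1.87). Dbf4, the activator of the Cdc7 kinase that fires origins, stood at 6.07 and 2.22 FPKM (1.14). Cdc7, Wdhd1, Clspn, Fancd2, Fanci and Rad54l were also past the line. Of these, Clspn, Fancd2, Fanci and Rad54l are among the 13 whose direction the minimum fixed. Rnaseh2c was lower, at 41.8 and 85.1 FPKM (-1.01, or -0.84 relative to the median of all genes). The origin recognition genes Orc2 to Orc6 lay between -0.17 and 0.40. The median was 0.37, but 0.11 over genes reaching 1 FPKM in both libraries and 0.08 over genes reaching 5 FPKM in either.

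Regulators of S-phase entry were mixed. Of 19 measured in each pair, 11 were lower in the library labelled cKO, against 39.1% of all genes, and 10 were higher in LacZ(+) cells, against 36.6%. Relative to the median of all genes these numbers were 12, against 52.4% of all genes, and 12, against 54.2%. In LacZ(+) cells 3 regulators were past the 2-fold line, against 4.67%. Of these 3, E2f8 (3.02 and 0.902 FPKM) reached 1 FPKM only in LacZ(+) cells, so the minimum fixed its direction. Of the 18 that reached it in both LacZ libraries, 9 were higher and 2 past the line. Of the 17 that reached it in both libraries of the Ctnnb1 pair, 10 were lower. E2f1 stood at 1.11, 1.69, 4.84 and 2.84 FPKM in the libraries labelled cKO, Het, LacZ(+) and LacZ(-). The D-type cyclin gene Ccnd1 stood at 23.8, 42.2, 36.2 and 37.1, and Ccnd2 at 17.6, 23.8, 43.0 and 19.1. The inhibitor gene Cdkn1a stood at 31.1, 18.1, 48.4 and 27.2 FPKM, the higher of each pair being the library labelled cKO and LacZ(+) cells.

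Markers of the bulge and of other cell types also differed between the LacZ populations. Of the 10 bulge and basal markers 5 were higher in LacZ(+) cells, against 36.6% of all genes, and 5 were lower. The 5 higher ones count Krt15, listed at 0 in LacZ(-) cells. Cd34 had the lowest difference of the 10. It stood at 223 FPKM in LacZ(+) and 516 in LacZ(-) cells (-1.21), and at 752 and 645 in the libraries labelled cKO and Het. The 6 genes listed as suprabasal markers were Krt1, Krt10, Ivl, Lor, Krt79 and Sprr1a. All 6 were higher in LacZ(+) cells, against 36.6% of all genes, and 4 were past the 2-fold line, against 4.67%. Their summed level was 2392 FPKM against 964, and 658 against 635 in the libraries labelled cKO and Het. The summed level of 6 leukocyte markers was 4.85 and 3.51 FPKM in LacZ(+) and LacZ(-) cells, of 6 fibroblast markers 10.9 and 18.1, and of 6 melanocyte markers 19.8 and 14.9. In the libraries labelled cKO and Het these sums were 8.56 and 5.35, 23.1 and 14.7, and 2.18 and 3.32. Of 6 matrix and inner root sheath markers the sum was 6.22 FPKM in LacZ(+) and 50.1 in LacZ(-) cells, where Krt25 alone stood at 47.7. In the libraries labelled cKO and Het it was 3.04 and 3.20. Other markers of this set went the other way in the LacZ pair. Krt71 stood at 2.31 FPKM in LacZ(+) and 1.14 in LacZ(-) cells, and Foxn1 at 1.13 and 0.674. Krt27 and Krt28 were under 1 FPKM in both, with the higher value in LacZ(+) cells. Listed at 0 were Cdh5 in cKO, Emcn in cKO and Het, Lyz2 in LacZ(+), Lum in Het and LacZ(+), Tyr in Het, Mlana in LacZ(-) and Shh in all but Het. The leukocyte marker Ptprc and all 4 endothelial markers were under 1 FPKM in every library. The part of these cells in the replication gene differences was not tested.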

How the data were processed

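RNA sequencing of 4 sorted populations was used, 1 library each, grouped by the sample labels; 4 ChIP samples of the series are not used here. The authors deposited FPKM values in 2 tables of 32091 rows, per the file headers. The first also holds a deposited log2 column by the authors (cKO relative to Het), which equals the log2 ratio of the FPKM within 0.01 for all 44 members and was used only for that check. Per the submitters' processing notes the tools were Cufflinks 2.1.1, TopHat2 2.0.4 and TopHat, and the builds GRCm38 and mm9, with no roles given. Table coordinates are taken as mm9, because on chromosome 7 they reach 152509964, beyond the last GRCm38 gene end of 145324059. FPKM divides by a library total, of which mt-Ts1 alone holds 20.6% to 28.1% of the summed FPKM, so abundant features can shift all other values.

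Symbols written as dates, 25 in number, were restored from their identifiers, and rows of a symbol were summed. The pseudocount was 1, the minimum 1 FPKM in either library and the line a log2 difference of 1. Of the members 30 are alone in their table interval, and reads of neighbours can enter the other 14 (Mcm7, Tyms, Tk1, Cdc45, Cdt1, Gins2, Rfc4, Rfc5, Pola1, Pole, Fen1, Lig1, Ccne2 and Chaf1a). The steps were run on a copy of a library without noise, with changes seeded only in genes at 5 FPKM or more. That run checks the arithmetic and does not cover genes of low level. The versions were Python 3.11.15, pandas 2.3.3 and numpy 2.4.6.

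Members and lists were chosen with earlier results of these data known. The counts over genes reaching 1 FPKM in both libraries were added after seeing the data, and no share over all genes was computed for them. All members were to be named; of the pathway list, the 5 with the largest difference per pair at 5 FPKM or more in 1 library. That list holds origin recognition, fork, nucleotide, recombination, chromatin and checkpoint genes; Ticrr was in neither table, and 1 gene that the rule names is not reported here. The promoter rule gave Mcm5 and a member with no E2F word within 2-fold, for which Rfc5 was taken. Dut was passed over because its window reads as coding sequence of another first exon. It still counts among the members without a word. The Chek1 promoter, the short windows and the other pathway genes named were added after their values were seen.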

Additional observations from a re-analysis of the deposited data

How the results depend on the processing

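The values describe 1 library per group, the depth is unknown, and no leave-one-out value can be had. No paired analysis was possible because each group holds 1 library. No alternative turned the direction of a median. The members' median in the Ctnnb1 pair was -0.25 with pseudocount 0.1, -0.13 with pseudocount 5, -0.22 with no minimum, -0.17 with a minimum of 5 FPKM, -0.26 after centring, -0.24 after upper-quartile scaling and -0.15 with only genes alone in their interval. In the LacZ pair it was 0.66 with pseudocount 0.1, 0.37 with pseudocount 5, 0.56 with a minimum of 5 FPKM, 0.78 after centring, 0.80 after upper-quartile scaling and 0.49 with only genes alone in their interval. With pseudocount 5 the members higher by 2-fold or more in LacZ(+) cells numbered 2 in place of 12; the other alternatives gave 8 to 15. With pseudocount 0.1, 3 members passed the 2-fold line on the lower side in the Ctnnb1 pair and 2 were past the line in both pairs, in place of 0 and 0. The median of the other pathway genes in the Ctnnb1 pair was -0.10 with pseudocount 0.1, -0.051 with pseudocount 5, -0.12 with no minimum, -0.021 with a minimum of 5 FPKM, -0.15 after centring and -0.13 after upper-quartile scaling. In the LacZ pair it was 0.47 with pseudocount 0.1, 0.20 with pseudocount 5, 0.38 with no minimum, 0.075 with a minimum of 5 FPKM, 0.54 after centring, 0.56 after upper-quartile scaling and 0.47 with only genes alone in their interval. With only genes reaching 1 FPKM in both libraries, an alternative chosen after seeing the data, the medians of the members were -0.18 in the Ctnnb1 pair and 0.56 in the LacZ pair, and those of the other pathway genes -0.069 and 0.11. Taking the highest row per symbol, or leaving out features listed at 0, changed none of these values.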

Other observations

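Among genes around S-phase entry, the following were chosen after their values were seen. E2f6, a repressor of the E2F family, stood at 32.4 FPKM in LacZ(+) and 7.45 in LacZ(-) cells (1.98), and at 17.9 and 10.5 in the libraries labelled cKO and Het (0.71), the higher side in each pair. Orc1 stood at 2.49 and 0.380 FPKM in the Ctnnb1 pair and at 1.33 and 0.215 in the LacZ pair, and its interval is shared by 2 rows. It reached 1 FPKM only in the library labelled cKO and in LacZ(+) cells, so the minimum fixed its direction in each pair. Mycn stood at 0.542 and 3.14 FPKM in the libraries labelled cKO and Het (-1.42). It reached 1 FPKM only in the library labelled Het, so the minimum fixed its direction. Cdkn1c, the gene of the inhibitor p57, stood at 9.88 and 4.65 FPKM (0.95) in that pair and under 1 FPKM in both LacZ populations.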
